A study of Mus musculus with 10 samples.

Results

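Heterotrimeric G proteins are built of an alpha, a beta and a gamma subunit and carry signals from G protein-coupled receptors into the cell. An active receptor makes the alpha subunit exchange GDP for GTP, and alpha and the beta-gamma pair then part and act on separate effectors. Alpha subunits of the Gi/o class lower cyclic AMP, Gs raises it and Gq activates phospholipase C beta, while beta-gamma opens inwardly rectifying potassium channels and slows presynaptic calcium channels. In the hippocampus these routes serve GABA-B, muscarinic, adenosine, serotonin and somatostatin receptors. The genes described are 4 of beta subunits (Gnb1, Gnb2, Gnb4 and Gnb5), 5 of alpha subunits (Gnao1, Gnai1 and Gnai2 of Gi/o, Gnas of Gs and Gnaq of Gq) and 1 of a gamma subunit (Gng3). All probe sets that the platform annotation gives to 1 of these 10 genes alone were taken, which made 21 of the 12488 probe sets on the array, and 19 of the 21 were bright enough to be tested. The genes were selected on the diet contrast itself, chosen by signal changes already seen on these arrays and in particular by the rise on 1 probe set of Gnb1 and the disagreement among its probe sets, so their values by diet are described without a test.

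The RNA came from the hippocampus of C57BL/6 males at 30 months of age, 5 on a control diet and 5 on a calorie restricted diet, each animal on an Affymetrix array of its own. How far intake was cut, and from what age, is not stated in the labels. Values are MAS5 signals on a log2 scale. Changes are calorie restricted minus control. The median of these over the 7453 tested probe sets, -0.15, is taken off each, and every change carries the standard error (SE) of the limma fit. Each probe set has its own response, so probe sets are set against each other only as differences within an array, and those differences only between diets. In tissue RNA, fewer cells of a type and less RNA per cell cannot be told apart.

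Calorie restricted replicates 3 and 5 stood apart in RNA quality. The signal at the 3' end of the Gapdh transcript was 82.7 and 160.7 times that at its 5' end in these arrays, against 1.24 to 1.98 times in the other calorie restricted arrays and 0.815 to 1.53 times in control arrays. For Actb it was 16.4 and 29.7 times in these arrays. The other calorie restricted arrays had 2.32 to 4.18 times for Actb, all above the 1.05 to 1.61 times of control arrays. Averaged with Actb on the log2 scale, the 3' to 5' difference was 0.16 ± 0.24 (SD, n = 5) in control arrays and 2.88 ± 2.57 in calorie restricted arrays (exact two-sided permutation p = 0.00794, the smallest that 252 splits can give; adjusted p = 0.00794 over 3 measures). Without these arrays the gap between diets was 0.88 (exact permutation p = 0.0179), and with any 1 of control replicates 1 to 4 left out it was 2.66 to 2.76 with an exact permutation p of 0.0556 to 0.0635. The bacterial spike-in signal was also higher by 1.92 (exact permutation p = 0.00794, adjusted p = 0.00794). The third measure, the median log2 signal of an array, differed by -0.35 (exact permutation p = 0.00794, adjusted p = 0.00794). It ran from 7.25 to 7.69 in calorie restricted and from 7.79 to 7.92 in control arrays. The part of these measures in the results was not tested. Changes of the subunit probe sets and of the genes named with them are therefore also given without replicates 3 and 5. The averaged 3' to 5' difference ran from -0.12 to 0.45 in control and from 0.78 to 6.11 in calorie restricted arrays, with no overlap. A fit with RNA quality as a covariate therefore cannot tell quality apart from diet.

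Markers of the tissue were present. Of 7 markers of hippocampal pyramidal and granule neurons 6 were bright enough to be tested, Prox1 being below the filter, and their summed signal ran from 4171 to 8095 in control and from 4371 to 6698 in calorie restricted mice, with 1 lower. All 6 pan-neuronal markers were tested, 2 were lower, and the sums ran from 31741 to 43965 and from 36386 to 46712. Summed signals of 5 astrocyte markers ran from 15341 to 20250 and from 21447 to 28402 with no overlap, though the only marker past the threshold was lower. Those of 4 oligodendrocyte markers ran from 14697 to 16823 and from 5692 to 13813, also with no overlap and with 2 lower. Microglial sums ran from 7384 to 10130 and from 6477 to 8526 with 1 of 6 markers lower, endothelial sums from 914 to 1156 and from 700 to 1471 with 0 of 3 tested past the threshold (Tek below the filter). Choroid plexus sums ran from 2619 to 11020 and from 502 to 14934 with 1 of 3 lower (Aqp1 below the filter), and blood sums from 3688 to 13730 and from 3726 to 7951 with 0 of 2 (Slc4a1 below the filter). Striatal markers had only 2 probe sets, summing to 197 to 381 and 180 to 282, with Rgs9 below the filter. Lower here means past the limma threshold (adjusted p under 0.05). Of all tested probe sets 7.74% were lower in this sense and 4.11% were higher. The part of these cell types in the results was not tested.

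Of the 19 tested probe sets, 11 changed by more than the median and 8 by less, close to the even split that the median fixes for all probe sets. The median relative change was 0.08, where the quartiles of all tested probe sets were -0.42 and 0.40. As a description only, since the genes were selected on this contrast, limma put 3 higher and 1 lower at an adjusted p under 0.05, where it did so for 11.8% of all tested probe sets in either direction, 4.11% higher and 7.74% lower. Signals of the diets did not overlap in 6 of the 19, 3 higher and 3 lower, beside 14.3% of all tested in either direction, 4.96% higher and 9.35% lower. The SD was larger in calorie restricted than in control mice in 14 of the 19, and in 76.0% of all tested probe sets. Of 5 genes with more than 1 tested probe set, 3 had probe sets on both sides of the median (Gnb1, Gnao1 and Gnas).

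The start regions of Gnb1 and Gng3 are shown because these are the beta and the gamma gene with a probe set higher in every calorie restricted array than in any control array. They are 300 bases each around the RefSeq start (GRCm38.p6), with capitals for GGGCGG, the core of the GC box bound by Sp factors, and for TGACG, the CREB half-site, on either strand.
Gnb1, chr4:155491111-155491410, plus strand: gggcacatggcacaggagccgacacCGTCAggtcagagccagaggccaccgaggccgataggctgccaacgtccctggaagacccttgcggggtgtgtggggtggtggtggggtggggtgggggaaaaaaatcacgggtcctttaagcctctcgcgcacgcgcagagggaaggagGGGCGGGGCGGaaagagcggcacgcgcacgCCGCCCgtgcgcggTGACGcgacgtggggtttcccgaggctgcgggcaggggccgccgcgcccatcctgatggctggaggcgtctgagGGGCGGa
Gng3, chr19:8839197-8839496, minus strand: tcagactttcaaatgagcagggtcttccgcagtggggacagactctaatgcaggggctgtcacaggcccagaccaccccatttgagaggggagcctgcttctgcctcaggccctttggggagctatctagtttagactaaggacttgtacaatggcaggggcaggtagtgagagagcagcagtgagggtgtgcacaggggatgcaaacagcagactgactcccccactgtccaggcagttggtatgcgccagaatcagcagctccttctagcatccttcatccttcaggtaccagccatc
The windows differ in kind. That of Gnb1 held 31 CpG dinucleotides, 4 matches to GGGCGG and 2 to TGACG, and was 70.3% G and C. That of Gng3 held 2 CpG and neither motif, at 55.7% G and C. Over all 32851 promoter windows in the RefSeq table the median was 7 CpG, 35.7% held GGGCGG and 20.8% held TGACG. Windows were listed for 8 of the 10 genes, 11 in all with 4 for Gnas, and 6 of the 11 held GGGCGG and 5 held TGACG. The full CREB site TGACGTCA, which contains TGACG, was in 0 of the 11 and in 1.79% of all windows. A TATAAA match on either strand stood in 4 of the 11 and in 13.6% of all. In these 4 windows it lay on the strand opposite to the gene. The Gnas windows that start at 174327499 and 174327518 overlap, so the same TGACG and TATAAA matches are counted in both. These are matches of letters only.

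Gnb1 encodes the beta-1 subunit, a propeller of WD repeats that holds the gamma subunit and docks the alpha subunit. Its 3 probe sets gave 3 different pictures. On 97458_at the log2 signal was 10.41, 10.58, 9.26, 9.72 and 10.95 in control replicates 1 to 5 and 13.25, 13.84, 12.97, 12.53 and 13.64 in calorie restricted replicates 1 to 5. Every calorie restricted array lay above every control array, and the means were 10.18 ± 0.68 and 13.25 ± 0.52 (SD, n = 5 each). Relative to the median, Gnb1 here changed by 3.22 ± 0.33 (SE) or 9.29-fold, and 3.13 ± 0.38 without calorie restricted replicates 3 and 5.

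The other probe sets of Gnb1, 94853_at and 94854_g_at, share a reference sequence in the annotation that is not that of 97458_at. On 94853_at the signal was 7.75, 7.70, 8.67, 8.77 and 7.69 in control and 7.47, 8.17, 8.09, 7.70 and 8.52 in calorie restricted mice. The diets lay over one another there, with a relative change of 0.03 ± 0.30 (SE) and -0.23 without replicates 3 and 5. On 94854_g_at, whose letter g marks probes that can match more than 1 transcript, it was 9.41, 10.02, 10.47, 10.60 and 8.47 in control and 11.39, 11.60, 7.15, 9.92 and 4.18 in calorie restricted mice. Calorie restricted replicates 1 and 2 were the highest of all 10 arrays on this probe set and replicates 3 and 5, the arrays with the widest Gapdh ratio, were the lowest. Over all arrays the change was -0.79 ± 1.19 (SE), and it turned to 1.28 ± 0.49 without replicates 3 and 5.

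The disagreement can be read within each array, where scaling between arrays cancels. Signal on 97458_at exceeded that on 94853_at by 0.59 to 3.25 in control arrays and by 4.83 to 5.78 in calorie restricted arrays, with no overlap. Signal on 94854_g_at exceeded that on 94853_at by 0.77 to 2.32 in control arrays. In calorie restricted replicates 1, 2 and 4 this difference was 3.92, 3.43 and 2.21, and in replicates 3 and 5 it was -0.94 and -4.34. In replicates 3 and 5, 94854_g_at lay below the control range while 94853_at, of the same reference sequence, lay within it; the 4.18 of replicate 5 is dim, under the lowest mean tested of 6.85. Averaged over its 3 probe sets, Gnb1 had a relative change of 0.81.

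The tested probe sets most like each Gnb1 probe set were found by Pearson's r of log2 signal over the 10 arrays, among 6732 of other genes. The points share the split by diet and the gap in RNA quality, so r is a description. For 97458_at they were Sod1, a superoxide dismutase (r = 0.982), a probe set of Atp5d, of the ATP synthase (0.971), Idi1, of isoprenoid synthesis (0.962), the myosin light chain gene Myl12b (0.951) and Pcnp (0.949), with relative changes of 0.80 to 2.18. For 94854_g_at they were the tubulin gene Tuba1c, the proteasome gene Psmd3, the deubiquitinase gene Usp5, Maf1, a repressor of RNA polymerase III, and Coro1a, an actin-binding coronin, with r from 0.975 to 0.978 and changes from -0.43 to -0.22. For 94853_at they were Slc19a1, Csf1, Ampd3, G3bp1 and Alas2, with r from 0.851 to 0.940 and changes from -0.45 to 0.30. No gene stood in more than 1 of the 3 sets of neighbours.

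Gnb2, which encodes the widely expressed beta-2 subunit, had 1 probe set, 96911_at. Its signal was 11.59, 11.82, 11.57, 11.58 and 11.42 in control and 12.18, 12.04, 9.82, 11.99 and 8.40 in calorie restricted mice. Calorie restricted replicates 1, 2 and 4 lay above all control arrays and replicates 3 and 5 below them all. This gave a change of -0.56 ± 0.63 (SE) over all arrays and turned to 0.58 ± 0.13 without replicates 3 and 5. In control mice the SD was only 0.14, against 1.70 under calorie restriction.

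Gnb5 encodes the beta-5 subunit, which in neurons pairs with RGS proteins of the R7 family rather than with a gamma subunit. On 100122_at it had 9.34, 9.36, 9.09, 8.84 and 9.05 in control and 9.77, 9.39, 10.07, 9.21 and 10.73 in calorie restricted mice. All calorie restricted arrays but replicate 4 lay above the control range, and replicates 3 and 5 were the highest. The change came to 0.85 ± 0.27 (SE), 0.42 ± 0.19 without these 2 arrays, and 0.23 once RNA quality entered as a covariate.

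Gnb4, of the beta-4 subunit, was below the filter and was not tested. On 93949_at it had 4.85, 7.22, 8.06, 6.36 and 7.25 in control and 7.20, 7.56, 7.34, 4.25 and 3.49 in calorie restricted mice. Both diets spanned more than 3 log2 units and overlapped.

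Gng3 encodes the gamma-3 subunit, found mainly in neurons, which anchors the beta-gamma pair to the membrane through a lipid tail. On 94986_at its signal was 12.75, 12.46, 12.15, 12.40 and 12.39 in control and 13.27, 13.40, 13.36, 12.91 and 12.94 in calorie restricted mice. All 5 calorie restricted arrays lay above all control arrays, and replicates 3 and 5 fell within the range of the other calorie restricted arrays. Its relative change was 0.90 ± 0.17 (SE) or 1.87-fold, 0.87 ± 0.16 without replicates 3 and 5 and 0.41 under quantile normalization.

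**Figure D1:**
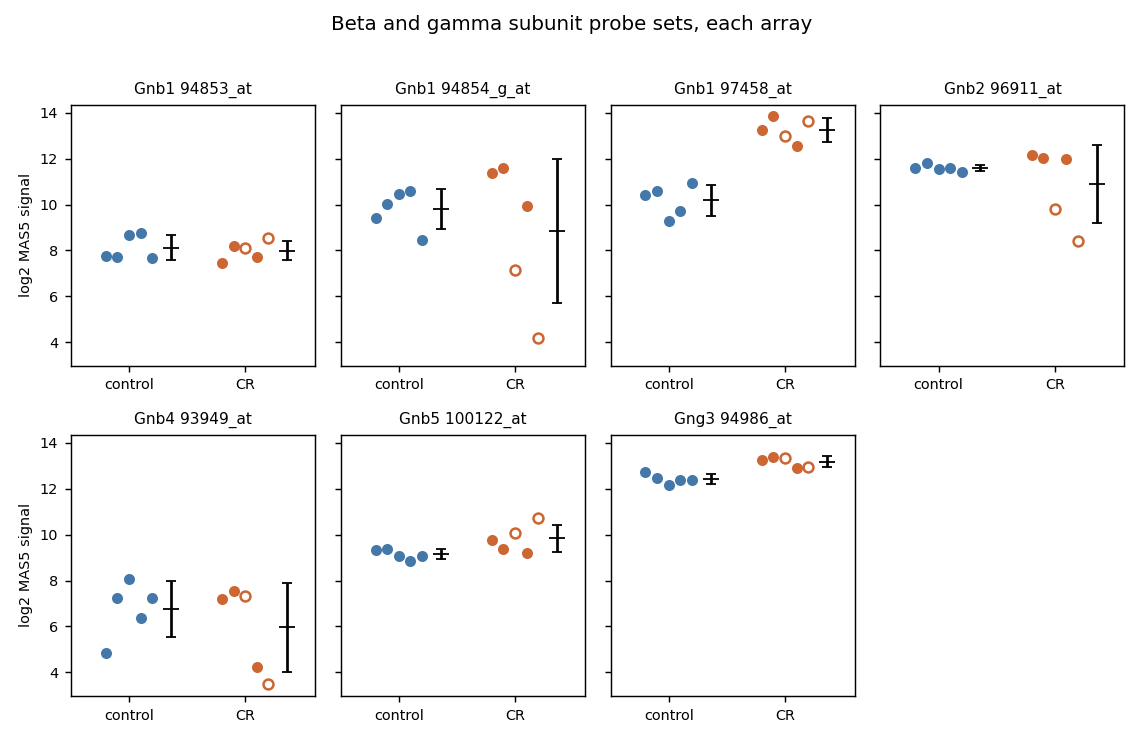
Log2 MAS5 signal (vertical axis) of each beta and gamma subunit probe set in the 5 control and 5 calorie restricted (CR) arrays, in replicate order from left to right; open points are CR replicates 3 and 5, and the bar is the mean ± SD of all 5. All CR points lie above all control points for Gnb1 97458_at and Gng3, while for Gnb1 94854_g_at and Gnb2 the open points are the lowest of all 10.

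Gnai1 encodes an alpha subunit that inhibits adenylyl cyclase, and its probe sets differed in size of change. On 97195_at the signal was 9.12, 9.14, 8.86, 8.82 and 9.03 in control and 8.24, 8.02, 5.80, 6.14 and 3.58 in calorie restricted mice. The control arrays lay close together and all 5 calorie restricted arrays below them, replicate 5 lowest. Over all arrays 97195_at changed by -2.48 ± 0.71 (SE), -1.42 ± 0.40 without replicates 3 and 5, and -0.78 once RNA quality entered as a covariate. The calorie restricted mean, 6.36, was under 6.85, the lowest mean tested, so the size of this fall is uncertain.

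On its other probe set, 104412_at, Gnai1 had 11.42, 11.31, 11.08, 11.28 and 11.49 in control and 10.90, 10.72, 11.21, 10.83 and 11.22 in calorie restricted mice. Here replicates 1, 2 and 4 lay below the control range and replicates 3 and 5 within it, the reverse of the order on 97195_at. This probe set had a change of -0.19 ± 0.16 (SE) and -0.40 ± 0.13 without replicates 3 and 5. Within an array 104412_at exceeded 97195_at by 2.17 to 2.46 in control mice and by 2.66 to 7.64 in calorie restricted mice, with 2.66 and 2.70 in replicates 1 and 2. The wider differences rest on 97195_at signals under the lowest mean tested, in replicates 3, 4 and 5.

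Gnai2 encodes the most widespread of the inhibitory alpha subunits and was above the median change on all 3 of its probe sets. On 99597_at it had 9.55, 9.83, 10.27, 10.06 and 9.90 in control and 10.69, 10.70, 10.63, 10.62 and 10.31 in calorie restricted mice. The ranges did not overlap, though calorie restricted replicate 5 stood only just above the highest control array. Relative to the median it changed by 0.82 ± 0.17 (SE), or 1.77-fold, and 0.85 ± 0.17 without replicates 3 and 5.

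The other probe sets of Gnai2 carry the letters g, as above, and f, for sequence shared within a gene family. On 99598_g_at, annotated to the same reference sequence as 99597_at, signals ran from 11.24 to 12.18 in control and from 11.74 to 12.46 in calorie restricted mice, with a relative change of 0.39 ± 0.22 (SE) and 0.47 without replicates 3 and 5. On 99596_f_at they ran from 12.46 to 13.35 and from 13.07 to 14.27, with 0.70 ± 0.25 (SE) and 0.37 without these arrays. Both overlapped between diets, and under quantile normalization 99596_f_at had 0.13 and 99598_g_at lay at the median.

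Gnao1 encodes the alpha-o subunit, the most abundant G protein of brain membranes, and had 5 probe sets that did not run together. On 103843_at it had 12.71, 12.82, 13.06, 12.98 and 12.88 in control and 12.87, 13.14, 13.22, 13.50 and 13.96 in calorie restricted mice. All calorie restricted arrays but replicate 1 were above the control range. Its change was 0.60 ± 0.20 (SE), 0.39 without replicates 3 and 5 and 0.04 under quantile normalization.

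On 100388_at, Gnao1 had 8.03, 8.55, 9.16, 8.61 and 7.27 in control and 8.31, 8.07, 4.85, 6.95 and 6.08 in calorie restricted mice. Replicates 1 and 2 lay within the control range and replicates 3, 4 and 5 below it. The relative change of -1.32 ± 0.61 (SE) was -0.44 ± 0.43 without replicates 3 and 5. On 161902_f_at signals were 9.54, 9.91, 9.83, 9.74 and 9.57 in control and 9.42, 9.50, 7.56, 9.39 and 7.77 in calorie restricted mice, without overlap. The 3 better calorie restricted arrays lay just under the lowest control array and replicates 3 and 5 far below, so that the relative change was -0.84 ± 0.38 (SE) with them and -0.18 ± 0.15 without. On 104414_at it ran from 9.19 to 9.99 and from 8.62 to 9.72, at 0.08 ± 0.25 (SE) and 0.23 without them. The last, 103844_at, was too dim to test, at 3.77 to 4.94 in control and 3.20 to 3.99 in calorie restricted mice.

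Gnas encodes the stimulatory alpha subunit and lies in an imprinted locus that makes several transcripts from separate starts. On 93271_s_at, where s marks sequence shared between transcripts, it had 14.57, 14.48, 14.22, 14.35 and 14.33 in control and 14.48, 14.56, 15.14, 14.78 and 15.32 in calorie restricted mice. Replicates 3, 4 and 5 lay above the control range and replicates 1 and 2 within it. That gave a relative change of 0.62 ± 0.19 (SE), 0.32 without replicates 3 and 5 and -0.25 under quantile normalization, a turn of direction.

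On 92672_at, Gnas had 7.31, 7.51, 7.60, 7.34 and 7.39 in control and 6.76, 6.67, 6.79, 6.10 and 5.77 in calorie restricted mice. All calorie restricted arrays were below all control arrays, with a relative change of -0.86 ± 0.31 (SE) and -0.82 ± 0.32 without replicates 3 and 5. Their mean, 6.42, was also under the lowest mean tested, so its size is uncertain too. The excess of 93271_s_at over 92672_at within an array was 6.61 to 7.26 in control and 7.72 to 9.55 in calorie restricted mice. On 102082_at signals ran from 5.12 to 7.76 in control and from 6.50 to 7.71 in calorie restricted mice and overlapped, at 0.19 ± 0.50 (SE) and 0.30 without replicates 3 and 5.

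Gnaq encodes the alpha subunit that activates phospholipase C beta. On 99981_at it had 7.96, 7.63, 8.03, 7.32 and 7.48 in control and 7.34, 8.01, 6.42, 6.93 and 6.78 in calorie restricted mice. Replicates 1 and 2 lay within the control range and replicates 3, 4 and 5 below it. Gnaq had a relative change of -0.44 ± 0.32 (SE) and -0.15 ± 0.32 without replicates 3 and 5.

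**Figure D2:**
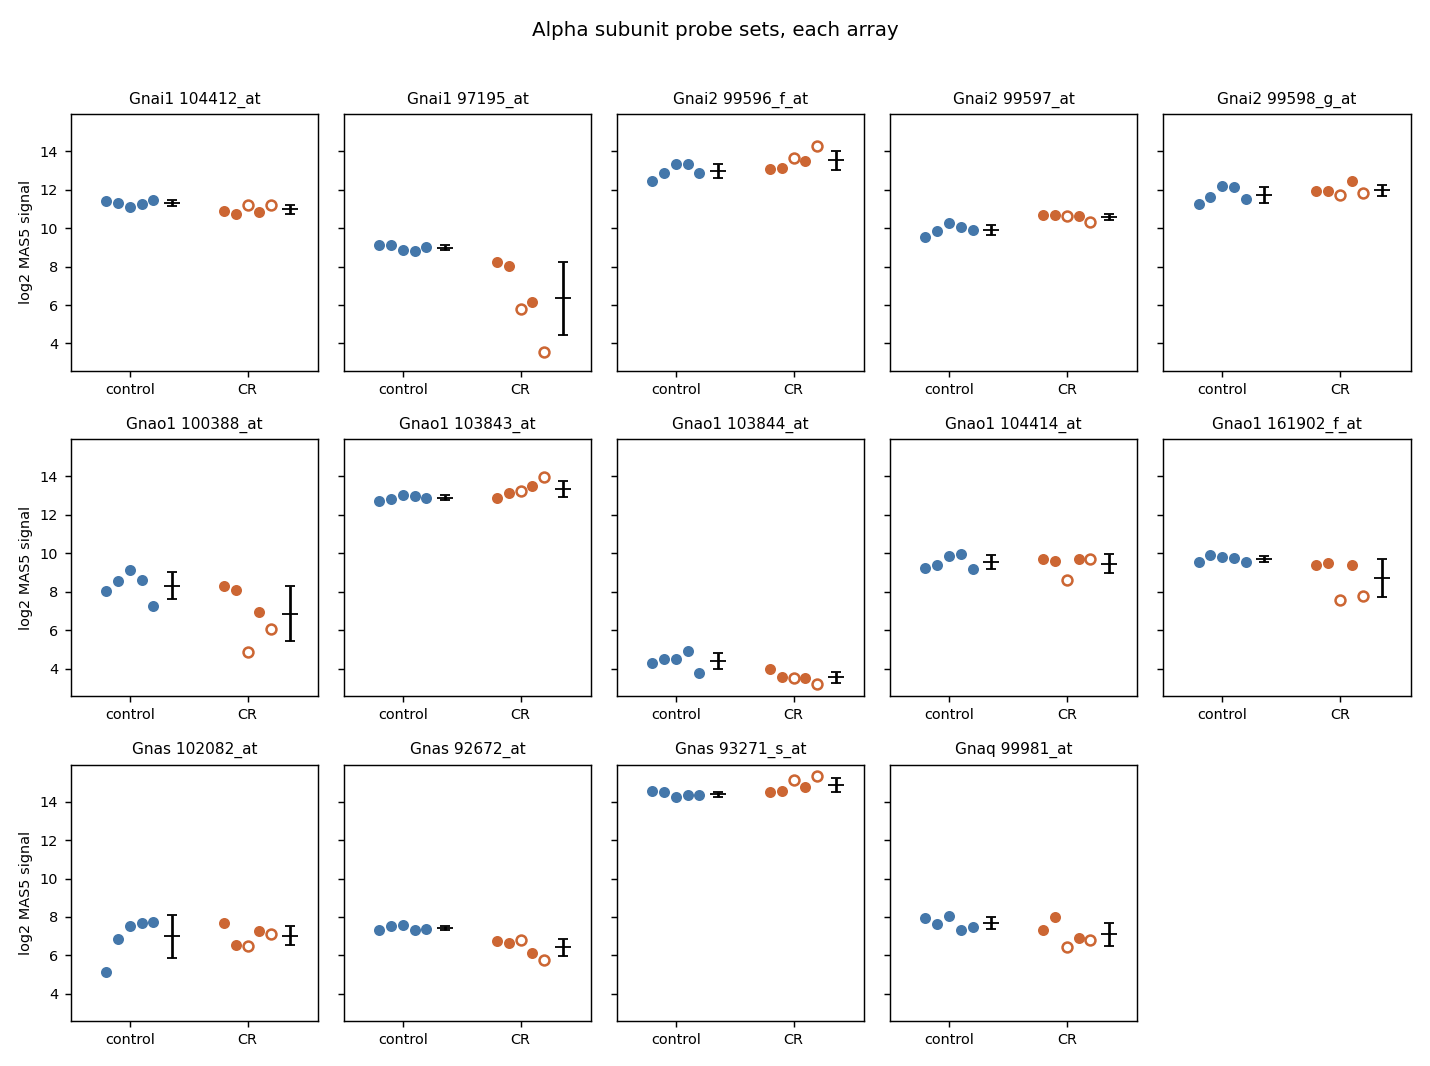
Log2 MAS5 signal (vertical axis) of each alpha subunit probe set in the control and calorie restricted (CR) arrays, drawn as for the beta and gamma subunits, with open points for CR replicates 3 and 5 and bars for the mean ± SD. Probe sets of the same gene run apart: Gnai1 97195_at falls to 3.58 in CR replicate 5 while 104412_at stays between 10.72 and 11.49 in all arrays.

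Across the 19 tested probe sets, leaving out calorie restricted replicates 3 and 5 turned the sign of the relative change in 3 (Gnb1 94853_at and 94854_g_at, and Gnb2). Quantile normalization put 9 of the 19 above the median in place of 11, and RNA quality as a covariate put 13 there. With the covariate the sign turned in 4, as Gnb1 94854_g_at had 2.45, Gnb2 had 1.13, Gnao1 161902_f_at had 0.11 and Gnb1 94853_at had -0.29, while Gnao1 100388_at and Gnaq came to lie at the median. Calorie restricted replicate 3 or 5 was the lowest of the calorie restricted arrays in 11 probe sets and the highest in 7. The 7 included Gnas 93271_s_at, Gnao1 103843_at and Gnai2 99596_f_at. The share over all tested probe sets was not counted, so 11 and 7 are a description only. Over the alternatives tried, the relative change ran from 2.87 to 3.40 for Gnb1 97458_at, from 0.41 to 0.98 for Gng3, from 0.69 to 0.92 for Gnai2 99597_at and from -2.96 to -0.78 for Gnai1 97195_at. The count of 4 past the limma threshold was 1 without control replicate 2 or 4 or calorie restricted replicate 3, and 2 without control replicate 1, 3 or 5 or calorie restricted replicate 4.

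**Figure D3:**
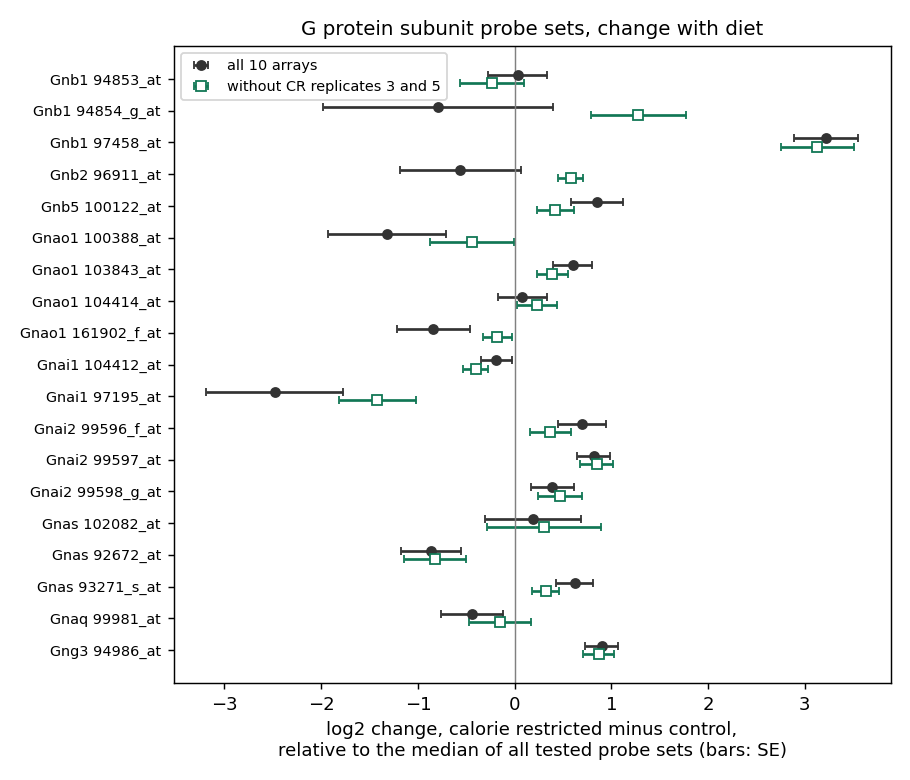
Log2 change relative to the median of all tested probe sets (horizontal axis, bars are SE) for each of the 19 tested probe sets, from all 10 arrays (filled) and without calorie restricted (CR) replicates 3 and 5 (open squares). Gnb1 97458_at stands at 3.22 and 3.13, and Gnb1 94854_g_at and Gnb2 change sides.

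The genes that act with these subunits were taken from 8 lists of other subunits, regulators, assembly factors, effectors and receptors, 178 genes in all. Of these 111 had a probe set of their own and 75 were bright enough to be tested, each on its brightest probe set. In limma 3 of the 75 were higher, 6 were lower and 66 did not pass, a share close to the 11.8% of all tested probe sets. The median relative change was -0.10, and 34 of the 75 lay above the median of all. Without calorie restricted replicates 3 and 5 the counts were 2 higher and 7 lower, beside 3.98% and 6.52% of all tested probe sets, with 7 of the 9 genes again past the threshold.

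The cyclic AMP list, of adenylyl cyclases, protein kinase A subunits, exchange factors and phosphodiesterases, held all 3 higher genes. Of its 14 tested members 3 were higher, 1 was lower and 10 did not pass, with a median of 0.04. That is 28.6% of a short list, beside 11.8% of all tested probe sets, 4.11% higher and 7.74% lower. Without calorie restricted replicates 3 and 5 the list had 2 higher and 2 lower. It was not tested as a set. Adcy8, an adenylyl cyclase stimulated by calcium and calmodulin, had 7.89, 5.18, 6.50, 6.05 and 7.99 in control and 8.21, 8.64, 8.90, 8.47 and 9.36 in calorie restricted mice. It rose by 2.15 ± 0.50 (SE; limma adjusted p = 0.0281), and all 5 calorie restricted arrays lay above all control arrays. Its control mean of 6.72 was under the lowest mean tested, so Adcy8 passed the filter only through its calorie restricted signals. Its size is therefore uncertain and its call is a description only. Without replicates 3 and 5 its change of 1.82 missed the threshold (limma adjusted p = 0.0843; 0.0232 to 0.155 over its alternatives).

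Pde1b, a phosphodiesterase activated by calmodulin, rose by 1.01 ± 0.21 (SE; limma adjusted p = 0.0273), again with no overlap, and by 1.17 without replicates 3 and 5. Its relative Pde1a, of the same enzyme family, fell by 1.22 ± 0.40 (limma adjusted p = 0.0452), with all calorie restricted arrays below all control arrays, and by 0.79 without replicates 3 and 5. Prkacb, a catalytic subunit of protein kinase A, rose by 0.71 ± 0.17 (limma adjusted p = 0.0484), with 4 of 5 calorie restricted arrays above the control range, and by 0.75 without replicates 3 and 5. Under quantile normalization its change of 0.26 missed the threshold (limma adjusted p = 0.368; 0.0154 to 0.368 over its alternatives).

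Among 9 tested subunit genes outside the 10, 0 rose, 1 fell and 8 did not pass, with a median of 0.16. Gna13, of an alpha subunit of the G12/13 class, had 9.21, 9.01, 9.21, 9.10 and 9.37 in control and 8.44, 8.45, 7.96, 8.33 and 6.54 in calorie restricted mice. It fell by 1.08 ± 0.33 (SE; limma adjusted p = 0.0353), and by 0.67 without replicates 3 and 5. Its other tested probe set pointed up and missed the threshold, and averaged over both Gna13 had -0.38 (limma adjusted p = 0.153). Gna11, of the Gq class, had 0.36 on its brightest probe set and passed on average over both, at 1.32 (limma adjusted p = 0.0180), so that this list turned from 1 lower to 1 higher. Once RNA quality entered as a covariate Gna13 was at -0.42, short of the threshold (limma adjusted p = 0.292; 0.0114 to 0.292 over its alternatives).

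Of 12 RGS proteins and other alpha subunit regulators, which mostly speed GTP hydrolysis, 0 rose and 1 fell, with a median of 0.04. Rgs5, an RGS protein also known as a marker of pericytes, fell by 1.18 ± 0.28 (SE; limma adjusted p = 0.0176), with all 5 calorie restricted arrays below all control arrays, and by 0.94 without replicates 3 and 5. Once RNA quality entered as a covariate it had -0.74 (limma adjusted p = 0.112; 0.0143 to 0.112 over its alternatives). Of 9 genes that fold and assemble beta-gamma, 1 fell and 8 did not pass, with a median of 0.14. Cct7, of the chaperonin that folds beta subunits, fell by 0.50 ± 0.19 (SE; limma adjusted p = 0.0429), with no overlap. Without replicates 3 and 5 Cct7 had -0.34 (limma adjusted p = 0.0607; 0.0266 to 0.272 over its alternatives).

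Among 19 tested receptors 0 rose, 2 fell and 17 did not pass, with a median of -0.52 and 6 of the 19 above the median of all. Sstr4, a somatostatin receptor that couples to Gi/o, fell by 0.80 ± 0.21 (SE; limma adjusted p = 0.0205), with 4 of 5 calorie restricted arrays below the control range. Adra2c, the alpha-2C adrenergic receptor, also coupled to Gi/o, fell by 0.73 ± 0.24 (SE; limma adjusted p = 0.0353), with all 5 below it. Without replicates 3 and 5 they had -0.72 and -0.57, and the median of the list was -0.29.

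No gene of the other 3 lists passed on its brightest probe set. Of 7 effectors of Gq and G12/13, Plcb1, a phospholipase C that Gq activates, had the smallest p, at -0.37 ± 0.17 (SE; limma adjusted p = 0.0640), and -0.27 without replicates 3 and 5. Averaged over their tested probe sets the protein kinase C genes Prkcd, at -0.49 (limma adjusted p = 0.0319), and Prkce, at -0.81 (limma adjusted p = 0.0140), of the same list did pass. Kcnj9, a subunit of the potassium channels that beta-gamma opens, had -1.90 ± 0.64 (limma adjusted p = 0.0555), and -0.77 without replicates 3 and 5. Averaged over its tested probe sets Kcnj9 had -1.0 (limma adjusted p = 0.188). With RNA quality as a covariate its brightest probe set had -0.23 (limma adjusted p = 0.593). Its signals in calorie restricted replicates 3 and 5, 5.26 and 5.62, were under the lowest mean tested. Kcnj9 was 1 of 2 beta-gamma effectors tested. Arrb1, a beta-arrestin that uncouples receptors, had 0.79 ± 0.29 (limma adjusted p = 0.148), and 0.51 without replicates 3 and 5, among 3 receptor kinases and arrestins. Its other tested probe set went the other way, at -0.49, and their average was 0.15 (limma adjusted p = 0.997). The medians of these lists were -0.09, -1.30 and 0.45.

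Rgs5 passed with any 1 array left out, and the other 8 genes each missed the threshold in at least 1 such fit. In these fits the change of Rgs5 ran from -1.32 to -1.01 and that of Gna13 from -1.21 to -0.76. That of Adra2c ran from -0.86 to -0.56 and that of Adcy8 from 1.76 to 2.46. Without control replicate 2, 3 or 4 only Rgs5 of the 9 passed in limma. Rgs5, Adcy8 and Sstr4 passed without control replicate 1 or 5, Rgs5 and Sstr4 without calorie restricted replicate 3, and these 3 with Gna13 without calorie restricted replicate 4. The number that passed of all 75 genes was 3, 1, 1, 1 and 4 when control replicates 1 to 5 were left out in turn. It was 18, 2 and 4 when calorie restricted replicates 2, 3 and 4 were. Entering RNA quality as a covariate left only Prkacb and Pde1b of the 9, and quantile normalization left all but Prkacb, Pde1a and Adra2c. With the tested probe sets of a gene averaged 10 genes passed. Gna13, Prkacb and Pde1a no longer did, and Gna11, Prkcd, Prkce and F2r, a thrombin receptor at -0.67 (limma adjusted p = 0.0465), did. On its brightest probe set F2r had 0.14 (limma adjusted p = 0.974), while its other tested probe set went the other way and passed. Prkacb had no other tested probe set to average. Its limma adjusted p moved from 0.0484 to 0.0515 because this fit was adjusted over genes. The 9 genes kept their direction in each alternative that measured them.

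**Figure D4:**
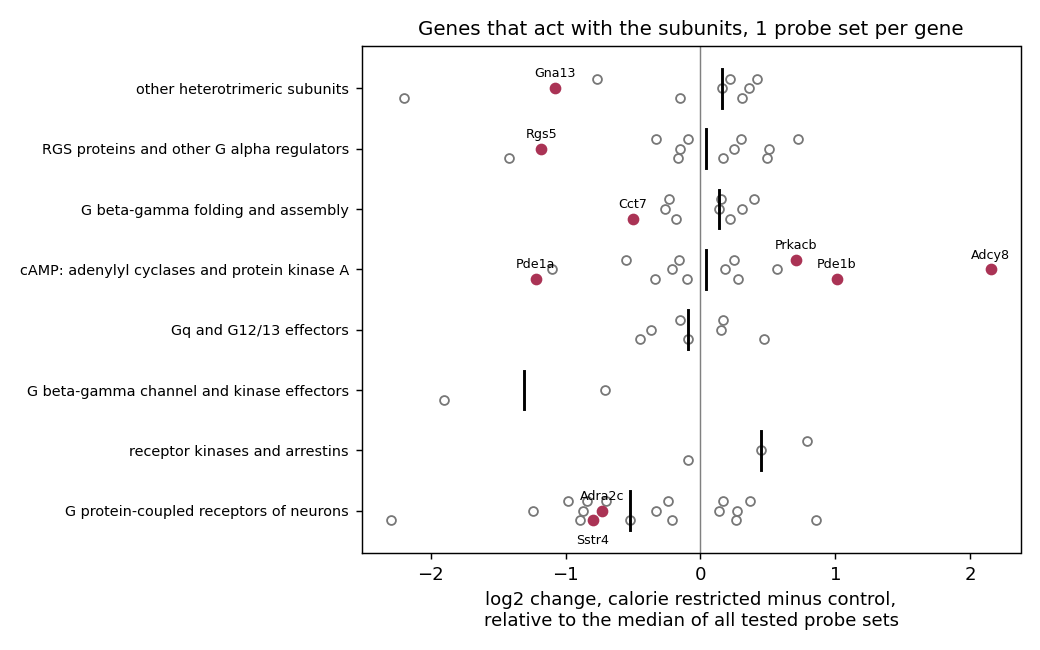
Log2 change relative to the median of all tested probe sets (horizontal axis) for the 75 tested genes of 8 lists (vertical axis), 1 point per gene; filled points passed in limma, open points did not, and the black bar is the list's median. The 3 filled points right of 0 are in the cyclic AMP list, which was not tested as a set. Adcy8, at 2.15, passed the filter only through its calorie restricted signals.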

How the data were processed

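The deposited table holds 1 intensity per probe set and array on a linear scale, computed by the authors with MAS5, per the submitters' processing notes, which name no version or settings. The deposited values share a trimmed mean of about 500 on every array (500.24 to 500.38, with 2% off each end). Values under 1 (41 of 124880) were set to 1 before log2. The 66 control probe sets and those with a mean under the 40th percentile (6.85) were left out. Symbols came from the platform annotation, updated by gene number through RefSeq. Diets were compared with limma 3.58.1 in R 4.3.3 (lmFit, eBayes with trend), Benjamini-Hochberg over 7453 probe sets and a threshold of 0.05, against a change of 0 before the median is taken off, so falls pass more easily than rises of the same relative size. The fit was tested on simulated data with independent noise and the same SD in both diets. That setting lacks the larger SD of calorie restricted arrays seen in most probe sets here. The members and lists were chosen with earlier results of these data known. Named are all member probe sets, up to 4 genes per list and direction past the threshold (or the 1 with the smallest p), and the 5 nearest probe sets of each Gnb1 probe set. Alternatives changed normalization, filter, offset, variance model, weights, covariate, block, threshold, probe sets per gene and arrays. The labels give no batch or scan date. The number of arrays limits the precision.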

Additional observations from a re-analysis of the deposited data

Results flagged for a closer look

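In 70 groups of 5 arrays, covering the member probe sets, the quality measures and the named genes that act with them, 5 held an array far from the other 4; chance marks about 1 in 20 groups. Gnao1 104414_at had 8.62 in calorie restricted replicate 3, against 9.59 to 9.72 in the other 4. Gnai2 99597_at had 10.31 in calorie restricted replicate 5, against 10.62 to 10.70, and 99598_g_at had 12.46 in replicate 4, against 11.74 to 11.92. Gna13 had 6.54 in calorie restricted replicate 5, against 7.96 to 8.45, and Arrb1 had 11.05 there, against 9.89 to 9.94.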

How the results depend on the processing

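In limma 883 of 7453 probe sets passed, 306 higher and 577 lower, with 2352 at an unadjusted p under 0.05. Under quantile normalization 603 passed, 319 higher and 284 lower, which moves the balance of directions. With RNA quality as a covariate 333 passed, and 72 passed at an adjusted p under 0.01. Leaving out single arrays gave from 253, without control replicate 2, to 1251, without calorie restricted replicate 2, with 421, 274, 301 and 553 without control replicates 1, 3, 4 and 5, and 349 and 561 without calorie restricted replicates 3 and 4. Of the 75 genes that act with the subunits 9 passed, 3 with RNA quality as a covariate, and from 1 to 18 with 1 array left out. The replicate block gave 540 probe sets and 5 of these genes. Deviations of same-numbered arrays correlated from -0.08 to 0.17, and 0 of 5 matched best with its own number. Whether same-numbered arrays share a batch is not stated in the labels and cannot be told from these correlations. The number of member probe sets above the median stayed between 8, with the filter at the 60th percentile and so fewer of them tested, and 13, where 11 was found on all arrays. Over the alternatives, values of member probe sets moved by less than 1 SD in 337 cases and by more in 18, and none past the threshold turned direction. Where the SD is wide, a move of less than 1 SD can still turn the sign. Without calorie restricted replicates 3 and 5 Gnb1 94854_g_at went from -0.79 to 1.28 in this way, and Gnb2 from -0.56 to 0.58. For the named genes 75 values no longer passed, 6 newly passed and 144 kept their side, with the cause not tested. The 3' to 5' difference ran from 1.92 to 3.25 with 1 array left out, a choice added after the data were seen, with exact permutation p up to 0.0635, and the spike-in gap from 1.77 to 2.09. Background was not analysed, so changes of dim probe sets are of uncertain size.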
